A study of Mus musculus with 6 samples.

Results

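The AP-1 transcription factors were followed in the back-skin epidermis of mouse embryos with Harlequin Ichthyosis, an inherited skin disease with plate-like thickening of the cornified layer and a failing barrier. The set holds 8 genes fixed by name: Fos, Fosb, Fosl1 and Fosl2 of the Fos family, Jun, Junb and Jund of the Jun family, and Atf3. Of these, 7 genes were named on the bead array by 10 of its 45281 probes, and Fosl1 was named by none. Of the 10 probes, 6 passed a filter on dim signals, 1 each for Fos, Fosl2, Jun, Junb, Jund and Atf3, and they are among 18358 probes that passed in all. The 3 mutant and the 3 wild-type samples were of the C57BL6 strain at E17.5, and both groups had the epidermis peeled off after 1 hour in 5 mM EDTA at 37 °C. The mutated gene, its allele and whether an array holds 1 embryo or several were not stated in the labels. The labels call the samples biological replicates, and their titles carry the prefix bo20 (2 mutant and 2 wild-type arrays) or bo12 (1 of each). The labels do not say what the prefix marks.

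AP-1 is a dimer of basic leucine zipper proteins that binds a short palindromic DNA site in promoters and enhancers. Fos proteins bind DNA only when paired with a Jun protein, whereas Jun proteins can also pair with one another. MAP kinases raise both the transcription and the activity of the members, and many members are immediate early genes, whose transcripts appear within minutes of a growth factor, wounding or stress. In skin AP-1 acts on keratinocyte differentiation, on matrix-degrading proteases and on inflammatory genes, and mice that lack Jun and Junb in the epidermis develop a psoriasis-like disease. An array reads transcript levels, not AP-1 protein, its phosphorylation or its binding.

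Wild-type array 3, of prefix bo12, stood apart. Its Pearson's r with the other arrays across the probes kept, which are not independent replicates, was 0.836 to 0.891, and all other pairs had 0.965 to 0.990. In it 258 probes lay more than 4 log2 units under the median of the other 5 arrays, against 9 in mutant array 3 and 0 in the other 4 arrays. The differences between groups of the AP-1 genes and of the genes named from the lists around them are therefore given with and without it. Mean raw intensity was 390 to 463 on mutant and 260 to 398 on wild-type arrays, so mutant arrays tended to be brighter before normalization, with overlapping ranges. Keratinocyte markers were detected as the label implies, with 13 of 14 genes past the filter and a summed level of 109000 to 120000 on mutant and 105000 to 135000 on wild-type arrays. Dermal fibroblast markers passed for 8 of 9 genes (26500 to 33700 and 19000 to 32200), and skeletal muscle markers for 7 of 7 (33100 to 52300 and 16100 to 41100), so the peels held RNA of other tissue. Macrophage and Langerhans cell markers passed for 8 of 10 genes, with Cd207 and Ptprc under the filter. Their sum was 5660 to 6250 on mutant and 2320 to 4460 on wild-type arrays, without overlap. Bright genes weigh most in such a sum. For 3 of the 8 every mutant value lay above every wild-type value, as for 5.96% of all genes. The median log2 difference of the 8 was 0.65, or 0.36 without wild-type array 3, and the largest was that of Lyz2, at 1.79 (SE 0.23). In bulk tissue, more cells of a type and more RNA per cell cannot be told apart. Abca12, the lipid transporter whose loss causes the human disease, was read by 2 probes that passed the filter and pointed opposite ways, at -1.12 (SE 0.78, limma adjusted p = 0.791) and 1.04 (SE 0.55, limma adjusted p = 0.791), so it does not check the labels.

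No AP-1 gene differed between mutant and wild-type epidermis beyond the spread between arrays. Of the 6 measured, 0 reached limma's threshold (adjusted p under 0.05), as did 0% of all 18358 probes. At an unadjusted p under 0.05 there were 0 of the 6, against 1077 probes (5.87%), of which 2.47% were higher and 3.39% lower in mutants. Groups without overlap were found for 1 of the 6 with mutants lower (7.68% of all probes) and 0 with mutants higher (5.63%). The difference nearest to the threshold was that of Fosl2 (unadjusted p = 0.0699), and the largest in size was that of Fos. All values are log2 of background-corrected, quantile-normalized intensity, and each difference is mutant minus wild type. A level of one gene's probe cannot be set against that of another gene.

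**Figure D1:**
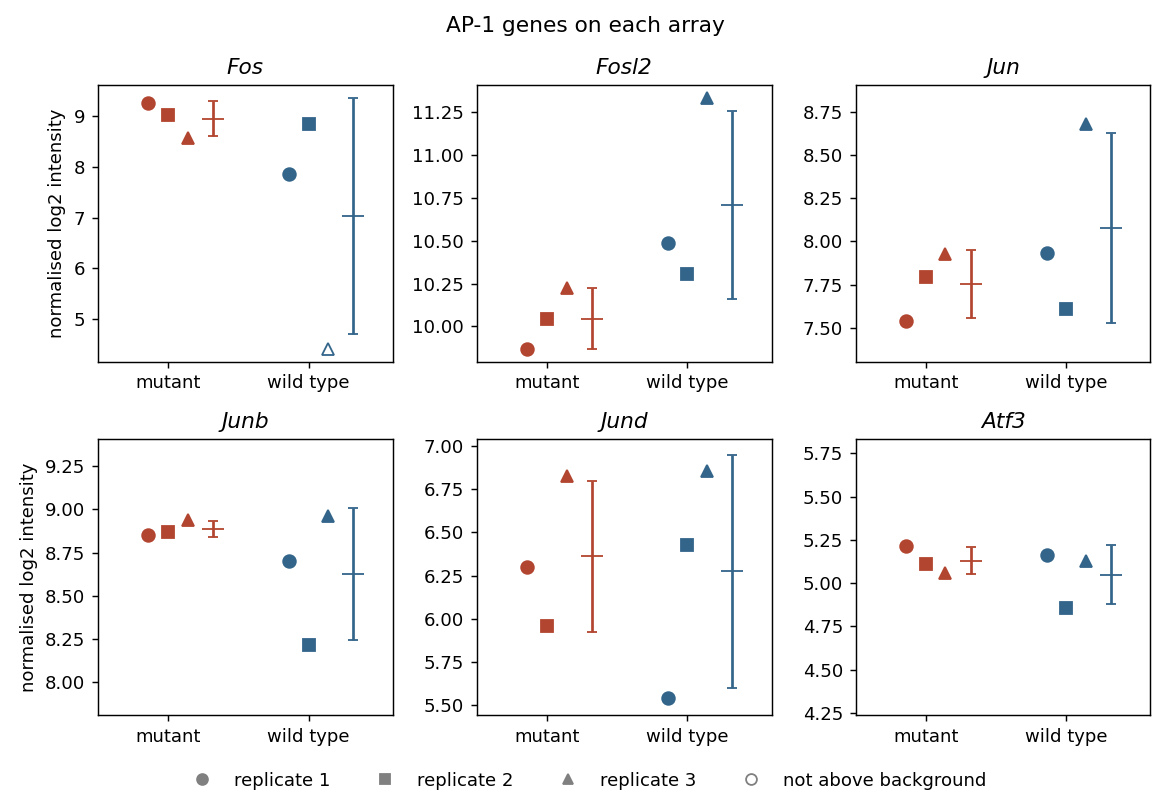
Normalised log2 intensity (vertical axis, own range in each panel) of the 6 measured AP-1 genes on the 3 mutant and 3 wild-type arrays. Circles, squares and triangles are replicates 1, 2 and 3, bars are the mean ± SD, and the open triangle for Fos marks the wild-type array where it was not above background, at 4.40. For Fosl2 all 3 mutant points lie under all 3 wild-type points, and for the other 5 genes the groups overlap.

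Among the Fos family, Fos itself, the rapidly induced founding member, read 9.26, 9.03 and 8.57 in mutant arrays 1 to 3, against 7.86, 8.85 and 4.40 in wild-type arrays 1 to 3. The lowest mutant value lay under wild-type array 2 and above wild-type arrays 1 and 3, so the groups overlapped. Fos was above background on all 3 mutant arrays and on 2 of 3 wild-type arrays, the exception being wild-type array 3, with a raw intensity of 78.3 where the other 5 arrays read 207.0 to 898.2. The means were 8.95 ± 0.35 in mutants and 7.04 ± 2.34 in wild type (SD, n = 3 each). The difference of 1.92 (SE 1.04) equals 3.78-fold, with a 95% interval of 0.687 to 20.8, and limma's adjusted p was 0.791. Wild-type array 3 decides this size. There Fos lay 4.45 under the median of the other 5 arrays, a shortfall that only 141 probes (0.768%) reached or passed in that array. Without it the difference was 0.59 (SE 0.33), or 1.51-fold, and limma's adjusted p was 0.647, with mutant arrays still overlapping wild-type array 2.

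Fosl2, which encodes Fra-2, a more slowly induced and longer-lived Fos protein, was the gene of the set whose groups did not overlap. Its brighter probe read 9.87, 10.05 and 10.22 in mutants, against 10.48, 10.30 and 11.33 in wild type. Every mutant value was lower than every wild-type value, and the closest pair, mutant array 3 and wild-type array 2, lay near each other. The means were 10.05 ± 0.18 in mutants and 10.71 ± 0.55 in wild type (SD, n = 3 each), a difference of -0.66 (SE 0.31) or 0.632-fold (95% interval 0.380 to 1.05), and limma's adjusted p was 0.791. Wild-type array 3 held the highest value. Without it the difference was -0.34 (SE 0.19, limma adjusted p = 0.630), the groups still did not overlap, and 11.4% of probes were separated in that direction. On the authors' deposited log2 values and with median scaling the Fosl2 groups overlapped, with differences of -0.37 and -0.12. Median scaling put the median of all probes at 0.42, and relative to that median Fosl2 lay at -0.54. The other 2 Fosl2 probes were not above background on any of the 6 arrays.

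Fosb, an activity-induced Fos protein that keratinocytes also make, was not above background on any array. Its raw intensities were 86.2, 95.1 and 99.2 on mutant arrays and 85.7, 95.6 and 76.6 on wild-type arrays, and its detection p ranged from 0.062 to 0.611. These readings give no fold in either direction. Fosl1, which encodes Fra-1, a Fos protein of wound-edge and tumour keratinocytes, had no named probe and was not analysed here.

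In the Jun family, Jun, the main partner of Fos, read 7.54, 7.80 and 7.93 in mutants, against 7.94, 7.61 and 8.68 in wild type. Mutant arrays 2 and 3 fell inside the wild-type range. The difference was -0.32 (SE 0.31, 95% interval -1.06 to 0.42; limma adjusted p = 0.793). Without wild-type array 3, which again held the highest value, it was -0.02 (SE 0.20, 95% interval -0.49 to 0.46). Its sign was positive with median scaling (0.29), where the median of all probes stood at 0.42, and relative to that median Jun lay at -0.13.

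Junb, a Jun protein that often counters Jun and restrains keratinocyte cytokine production, varied least among mutants, at 8.85, 8.87 and 8.94, against 8.70, 8.21 and 8.96 in wild type. All 3 mutant values stood above wild-type arrays 1 and 2 and just under wild-type array 3. The means were 8.89 ± 0.05 and 8.63 ± 0.38 (SD, n = 3 each), a difference of 0.26 (SE 0.25, limma adjusted p = 0.793). Here the processing mattered. Raw intensities were 701, 755 and 632 in mutants and 314, 426 and 382 in wild type, which is 1.86-fold between the means and leaves the groups apart. However, 35.7% of all probes were separated with mutants higher on the raw scale, where mutant arrays tended to be brighter. On the authors' deposited log2 values the Junb groups were separated with a difference of 0.46 (limma unadjusted p = 0.0206, adjusted p = 0.522), as were 7.04% of probes, while 4.72% were higher at an unadjusted p under 0.05. With median scaling the difference was 0.85, or 0.43 above the median of all probes (limma unadjusted p = 0.00727, adjusted p = 0.347), and 24.1% of probes were separated in that direction and 13.4% higher at an unadjusted p under 0.05. Without wild-type array 3 it was 0.42 (SE 0.20, limma adjusted p = 0.570), separated like 14.6% of probes.

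Jund, the Jun protein present in resting cells and least dependent on stimulation, read 6.30, 5.96 and 6.82 in mutants, against 5.54, 6.43 and 6.85 in wild type. The mutant range lay inside the wild-type range, and both bo12 arrays read higher than the bo20 arrays of their own group. The difference was 0.09 (SE 0.39, 95% interval -0.84 to 1.01; limma adjusted p = 0.945), and leaving out wild-type array 3 gave 0.39 (SE 0.35). The interval is wide enough to hold a change of 2.02-fold upward, so this probe measured Jund with little precision.

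Atf3, a stress-induced member of the ATF group that pairs with Jun proteins and often represses, was detected on all 6 arrays but dimly. Its level ranked at the 13.8th percentile of the probes kept, with raw intensities of 116.9, 121.8 and 106.6 in mutants and 95.2, 102.6 and 87.9 in wild type. After normalization it read 5.21, 5.11 and 5.06 in mutants, against 5.16, 4.85 and 5.13 in wild type, with overlapping groups. The difference was 0.08 (SE 0.20, 95% interval -0.39 to 0.55; limma adjusted p = 0.902), 0.13 without wild-type array 3, and -0.17 on the authors' deposited log2 values. Signals this near background are compressed, so a fold change of Atf3 can be understated.

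**Figure D2:**
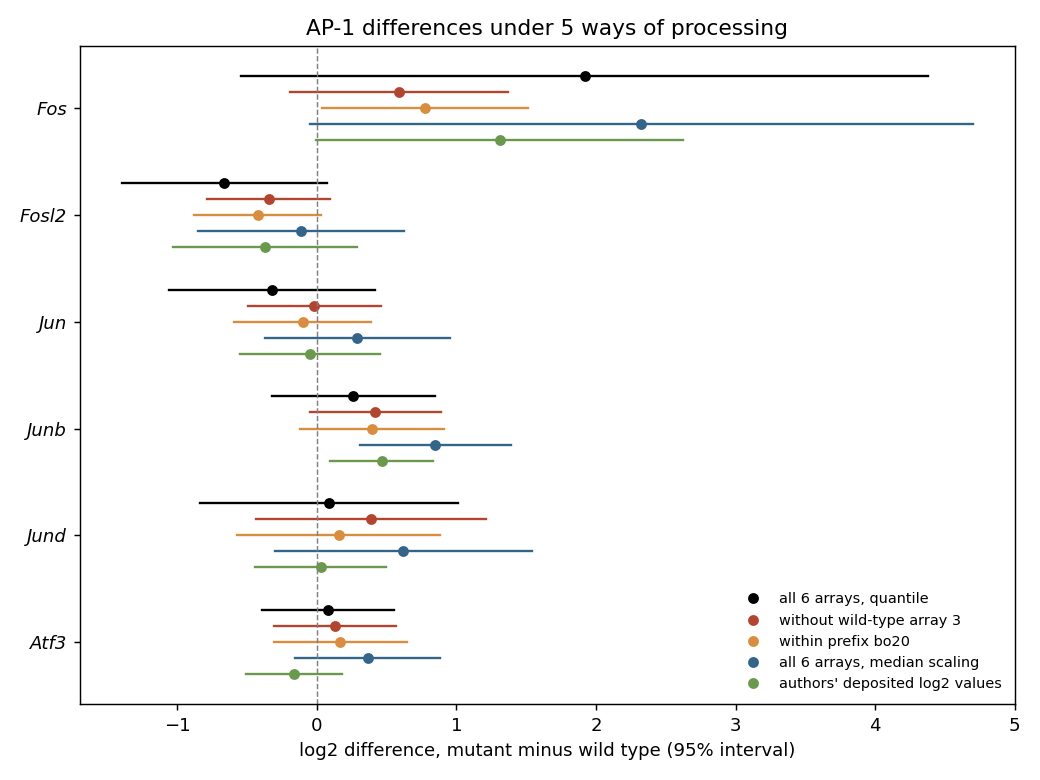
Log2 difference, mutant minus wild type, of the 6 measured AP-1 genes (points) with 95% intervals (lines) under 5 ways of processing, named in the key. The interval of Fos is narrower on the arrays other than wild-type array 3 (point at 0.59) and within bo20 (point at 0.77) than on all 6 arrays (point at 1.92), Junb lies above 0 in all 5, and Jun and Atf3 fall on either side of 0.

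Samples that share a replicate number also share a title prefix. Deviations of same-numbered arrays from their group means correlated at 0.27, 0.462 and 0.538. Within bo20, those of mutant array 1 and wild-type array 2 correlated at 0.449, and those of mutant array 2 and wild-type array 1 at 0.191. The correlations thus do not show that bo20 arrays pair by number. Taken within such pairs, Fos was above wild type in 3 of 3 pairs (1.40, 0.18 and 4.17), and Fosl2 was below in 3 of 3 (-0.62, -0.26 and -1.11). Of all probes 15.4% were above and 22.6% below in all 3 pairs. Jun was above in 1 of 3 pairs (-0.39, 0.18 and -0.75) and Jund in 1 of 3 (0.76, -0.47 and -0.03). Junb (0.15, 0.65 and -0.02) and Atf3 (0.05, 0.26 and -0.07) were above in 2 of 3. With the replicate number as a block in limma, Fos had an unadjusted p of 0.0355 and Fosl2 of 0.0378, where 9.21% of probes had a p under 0.05, and both had an adjusted p of 0.535. With the prefix as a fixed block the unadjusted p was 0.0229 for Fos and 0.0183 for Fosl2 (13.1% of probes under 0.05, 0.261% past the adjusted threshold). With arrays weighted by their fit, wild-type array 3 counting least at 0.112, it was 0.0360 and 0.0309 (15.9% and 0.703% of probes). The smallest adjusted p of an AP-1 gene in these fits was 0.267.

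**Figure D3:**
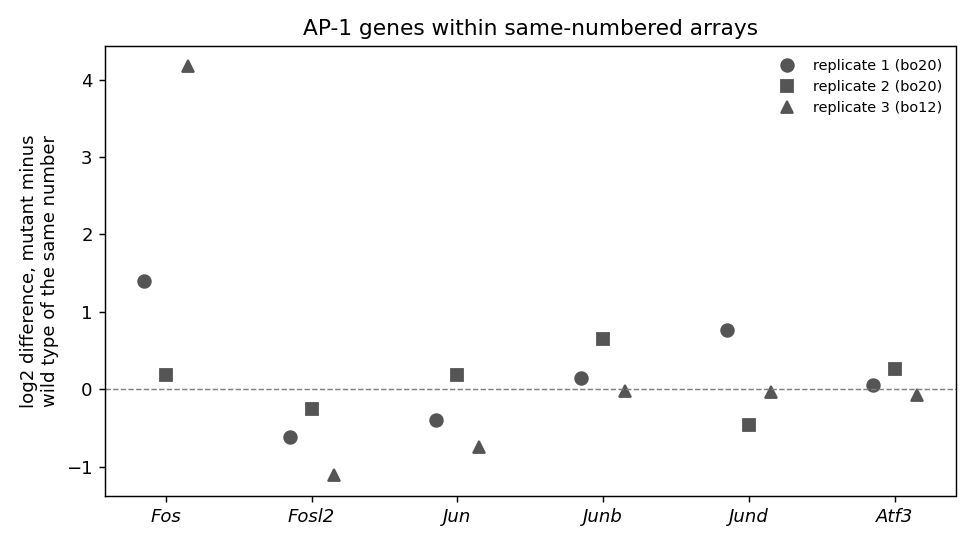
Log2 difference between mutant and wild-type arrays of the same replicate number for the 6 measured AP-1 genes, with circles and squares for the bo20 pairs and triangles for the bo12 pair. All 3 points lie above 0 for Fos, up to 4.17 in bo12, and all 3 lie below 0 for Fosl2.

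On the bo20 arrays alone, normalized by themselves, Fos stood at 0.77 with an unadjusted p of 0.0413 and an adjusted p of 0.360 in limma, where 7.22% of probes were higher at an unadjusted p under 0.05. Between the prefixes, Fos differed by 0.79 within bo20 and by 4.17 within bo12. A limma interaction of group and prefix gave 3.38 (SE 0.54) for the gap, with an adjusted p of 0.00531, while 10.1% of all probes passed that test. The bo12 value rests on 1 mutant array and on wild-type array 3, in which Fos was not above background, so neither 4.17 nor 3.38 is an exact difference. The spread behind that SE and p comes from the bo20 arrays alone (2 residual degrees of freedom, moderated over all probes), so the test does not tell the prefix from that array. For the remaining genes the gap was -0.67 (Fosl2), -0.65 (Jun), -0.42 (Junb), -0.18 (Jund) and -0.23 (Atf3), with adjusted p of 0.253 to 0.858.

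Jun and Fos are themselves regulated through AP-1-like and cyclic AMP response sites near their starts, so the promoters were searched for these. RefSeq promoters on build GRCm38.p6 were at hand for 7 of the 8 genes, and the 250 bases before the annotated start were searched on both strands. The sequences of Fos, Jun and Fosl2 are shown for the inducible pair and for the gene whose groups were separated. They run 5′ to 3′ on the gene's strand and lie upstream of the transcript, at chr12:85473640-85473889 (plus strand), chr4:95052223-95052472 (minus strand) and chr5:32136222-32136471 (plus strand). Capitals mark TGACATCA, the variant AP-1 site, TGACG, the core of the cyclic AMP response element, in either orientation, and TATAAA, the TATA box.
Fos: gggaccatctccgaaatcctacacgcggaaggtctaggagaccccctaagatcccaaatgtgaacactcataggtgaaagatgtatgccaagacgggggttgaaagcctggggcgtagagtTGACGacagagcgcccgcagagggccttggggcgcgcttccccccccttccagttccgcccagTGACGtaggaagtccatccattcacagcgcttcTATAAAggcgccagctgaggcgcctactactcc
Jun: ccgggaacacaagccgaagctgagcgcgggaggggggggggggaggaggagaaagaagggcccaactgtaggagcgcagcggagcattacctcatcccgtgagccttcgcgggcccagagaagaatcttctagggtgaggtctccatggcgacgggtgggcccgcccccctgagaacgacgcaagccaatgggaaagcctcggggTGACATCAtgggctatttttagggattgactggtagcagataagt
Fosl2: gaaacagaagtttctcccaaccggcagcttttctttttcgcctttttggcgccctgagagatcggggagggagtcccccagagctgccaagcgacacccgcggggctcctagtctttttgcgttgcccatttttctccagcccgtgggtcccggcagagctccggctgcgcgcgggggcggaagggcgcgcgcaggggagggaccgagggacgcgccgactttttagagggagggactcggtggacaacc
The Jun window held TGACATCA from 45 to 38 bases before the start, as did 2.93% of 32851 promoter windows for at least 1 match. The Fos window held TGACG at 129 and at 66 bases before the start and a TATA box at 33 bases before it, and the Fosl2 window held none of these. TGACG was also present in the windows of Fosb, Junb and Atf3, so in 4 of 7 against 17.8% of all windows, and TATAAA in 1 of 7 against 12.4%. The common AP-1 site TGANTCA (6.75% of all windows), the full element TGACGTCA (1.55%), the STAT site TTCNNNGAA (7.02%) and the CArG box of serum response (1.47%) were found in 0 of 7. A looser serum response frame, any 6 bases between CC and GG, was found in 6 of 7, against 67.1% of all windows, and holds every CArG box. TGACG lies within TGACGTCA, so these searches overlap too. A match is no measured binding site, and the window leaves out enhancers and more distant promoter elements.

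Other bZIP proteins, which compete with AP-1 for partners or sites, passed the filter for 17 of 23 genes, and 0 passed limma's adjusted threshold, as 0% of 11354 genes did. At an unadjusted p under 0.05 there was 1 gene above (5.88%, against 2.59% of all genes) and 0 below (3.75% of all genes). That gene was Nfe2l2, encoding the oxidative stress regulator NRF2, at 6.40, 6.32 and 5.87 in mutants, against 5.28, 5.81 and 4.26 in wild type. Its difference was 1.08 (SE 0.41) on all arrays and 0.68 on those other than wild-type array 3, and it was above background on 2 of 3 wild-type arrays. Jdp2, a repressor that pairs with Jun, stood at 0.57 (SE 0.37), and at only 0.15 on the arrays other than wild-type array 3. Crem, a cyclic AMP-responsive factor, stood at 0.35 (SE 0.24) and Maf, a large Maf protein, at -0.26 (SE 0.21), or 0.31 and -0.18 with that array left out. The median of the list was 0.20, against -0.06 over all genes, and without that array 0.14 against 0.00.

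Of the MAP kinase cascade that feeds AP-1, 21 of 28 genes were measured and 0 passed limma's adjusted threshold, with 0 above (2.59% of all genes) and 2 below (9.52%, against 3.75% of all genes) at an unadjusted p under 0.05. Mapk13, the p38 isoform prominent in epidermis, read 10.07 to 10.24 in mutants, against 10.72 to 11.02 in wild type. Every mutant value lay under every wild-type value, with a difference of -0.76 (SE 0.20, limma adjusted p = 0.499), and it stood at -0.71 without wild-type array 3. Mapk3, an ERK kinase, stood at -0.48 (SE 0.19) and Map2k3, a kinase of p38, at -0.40 (SE 0.22), both also separated, though median scaling put them at 0.08 and 0.12, under its overall median of 0.42. Leaving out wild-type array 3 gave -0.43 for Mapk3 and -0.25 for Map2k3. Map3k1, which acts on JNK, stood at 0.54 (SE 0.26) with every mutant value above every wild-type value, and at 0.36 when that array was left out. In all, 4 of 21 were separated with mutants lower and 1 with mutants higher, against 8.24% and 5.96% of all genes. The list median was -0.16, and -0.12 without that array.

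MAP kinase phosphatases, which switch the cascade off, were measured for 9 of 11 genes, and 0 passed. Dusp14 stood at -0.92 (SE 0.27) and Dusp8 at -0.59 (SE 0.27), while Dusp7 and Dusp6, which act on ERK kinases, stood at 0.56 (SE 0.22) and 0.39 (SE 0.23). Leaving out wild-type array 3 gave -0.79 for Dusp14, -0.40 for Dusp8, 0.56 for Dusp7 and 0.41 for Dusp6. Each of these 4 had separated groups, 2 of 9 with mutants higher (5.96% of all genes) and 2 of 9 with mutants lower (8.24%). The list median was -0.03, and 0.09 without that array. Among other immediate early genes, measured for 17 of 24, 0 passed and the median was 0.24, or 0.18 without that array. Groups were separated for 3 of the 17 with mutants higher and 1 with mutants lower, against the same 5.96% and 8.24%. Egr1, a zinc finger factor induced together with Fos, read 10.64, 10.36 and 11.22 in mutants, against 9.84, 10.15 and 9.51 in wild type. Its difference was 0.91 (SE 0.30, limma adjusted p = 0.720), and 0.74 without wild-type array 3, with every mutant value above every wild-type value. Gadd45b, a stress sensor, stood at -0.71 (SE 0.20) and Sgk1, a glucocorticoid-induced kinase, at 0.59 (SE 0.27), both with separated groups. Hbegf, a ligand of the EGF receptor, stood at 0.58 (SE 0.28) with overlapping groups. Leaving out wild-type array 3 gave -0.80 for Gadd45b, 0.82 for Sgk1 and 0.81 for Hbegf.

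Epidermal and wound genes with known AP-1 sites were measured for 25 of 31, and 0 passed limma's adjusted threshold with all 6 arrays. At an unadjusted p under 0.05 there were 7 above (28.0%, against 2.59% of all genes) and 1 below (4% against 3.75%), and the median was 0.32, or 0.21 without wild-type array 3. The list was chosen with earlier results of these data known, so its shares, here and below, do not test AP-1 targets as a group. Groups were separated for 8 genes with mutants higher (5.96% of all genes) and 5 with mutants lower (8.24%). The lowest was Hmox1, an enzyme of haem breakdown, at -1.52 (SE 0.37, limma adjusted p = 0.451), and at -1.67 with that array left out. The 4 with the smallest p are inflammatory genes. The chemokine Ccl2 was at 6.43, 6.42 and 6.24 in mutants, and on no wild-type array above background. It stood at 1.85 (SE 0.21, limma adjusted p = 0.0818), which is no exact difference because wild type was not above background. Ccl2 passed the filter through the mutant arrays only, so its p-values, here and below, do not count as a test. Cxcl1, a neutrophil chemokine above background on 2 of 3 wild-type arrays, stood at 1.93 (SE 0.23), Il1b, an inflammatory cytokine above background on 1 of 3 wild-type arrays, at 1.39 (SE 0.25), and S100a8, an alarmin, at 2.92 (SE 0.59). Leaving out wild-type array 3 gave 1.85 for Ccl2, 1.85 for Cxcl1, 1.36 for Il1b and 2.18 for S100a8. Without it, Ccl2 (limma adjusted p = 0.0294), Cxcl1 (0.0356) and S100a8 (0.0320) rose past the threshold and Il1b did not (0.117). With Ccl2 counted, these were 3 of the 25 genes, where 0.324% of all genes passed. The sum of macrophage and Langerhans cell markers, given above, was also higher in mutants. Of those 8 genes, 3 were separated with mutants higher, against 5.96% of all genes. Their part in these values was not tested. Among differentiation genes of the list, Lor, encoding the envelope protein loricrin, stood at -0.22 (SE 0.22) and Tgm1, encoding an envelope cross-linking enzyme, at -0.41 (SE 0.22), or -0.23 and -0.41 on those 5 arrays. None of the AP-1 genes themselves passed on those 5 arrays, while 0.275% of probes did.

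**Figure D4:**
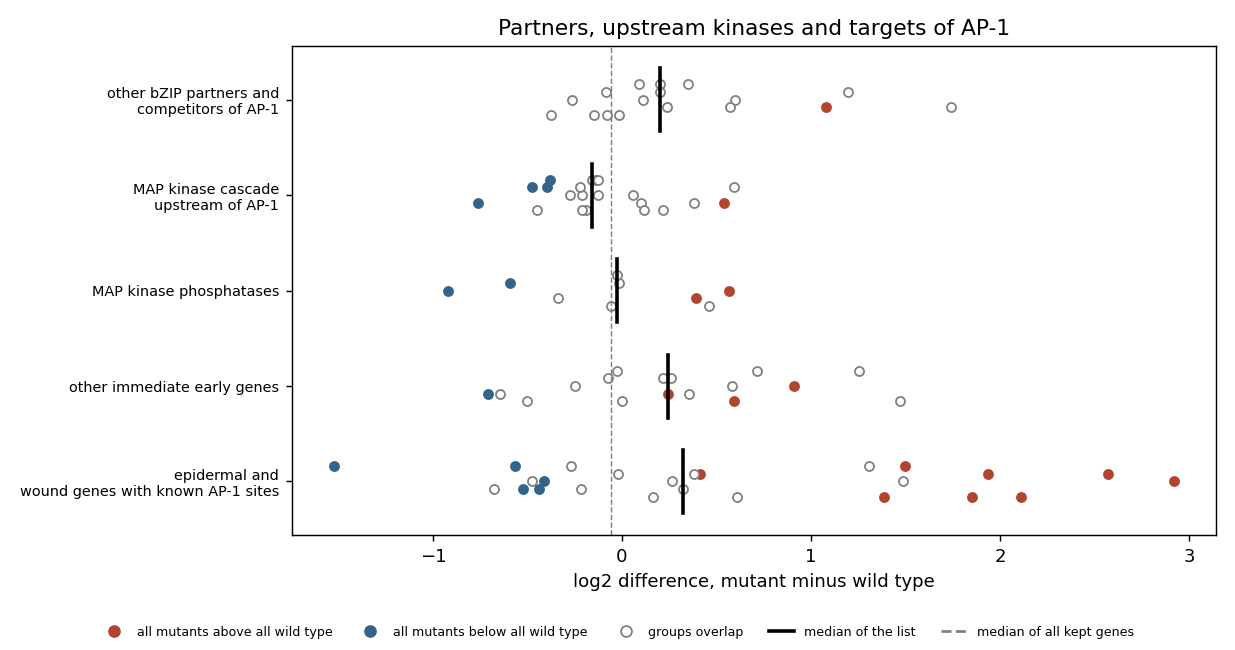
Log2 difference, mutant minus wild type, of each measured gene (points) in 5 lists around AP-1, with the list median (black bar) and the median of all measured genes (dashed line, -0.06). Red points have all mutant values above all wild-type values and blue points the reverse, and the points furthest to the right, up to 2.92 for S100a8, are among the genes with known AP-1 sites.

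For each AP-1 gene, the 2 genes closest in profile were taken as those with the smallest root mean square distance of centred log2 values over the 6 arrays, among 11353 other genes. The distances are in log2 units and describe these arrays. Fos was closest to Gjb6, encoding an epidermal connexin, and Timm8a1, a mitochondrial import chaperone, both at 0.21, and all 3 genes were lowest in wild-type array 3. Jun was closest to Lnx2 and Zfp28 (0.04 each), and Fosl2 to Efna4 and Snap47 (0.05 each), all of them highest in that array. Junb was closest to Cd84 (0.05), a receptor of white blood cells, and Comp (0.08), Jund to Amigo2 (0.06) and Coq3 (0.13), and Atf3 to Mmadhc and Gria2 (0.06 each). No AP-1 gene was among the 2 closest of another.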

How the data were processed

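Total RNA of the 6 epidermal samples was labelled (500 ng each) and hybridised to Illumina bead arrays, per the labels' protocols. The authors deposited a raw intensity per probe, and BeadStudio is named in the submitters' processing notes without a version. The authors also deposited a fraction beside each intensity, read as 1 minus the detection p because bright probes stand at 1. The deposited log2 table was recomputed as log2 intensity minus the array's 75th percentile, then minus the probe's median over the 6 arrays; 100% of values matched within 0.001. Array version and probe positions were not stated in the labels.

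Intensities were background-corrected (normexp, nec in limma 3.58.1, R 4.3.3, offset 16), quantile-normalized and put on the log2 scale. A probe entered the tests if its detection p was below 0.05 on 3 or more arrays. Of 45281 probes, 35784 carried 1 gene symbol, 0 several and 9497 none; symbols were updated through Entrez identifiers (28620 probes) or accessions (2637) with the GRCm38.p6 gene table and otherwise kept (4527). In the lists a gene with several kept probes stands by its brightest. Groups were compared by limma (two-sided, Benjamini-Hochberg over all kept probes), without covariates and with the method checked on simulated data. The simulated errors were independent, with the same spread for a probe on every array. The check therefore did not cover an outlying array or a difference between prefixes. Replicate numbers are the labels' own, and deviations of same-numbered arrays from their group means correlated at 0.27, 0.462 and 0.538. Those of mutant array 1 and wild-type array 2, of different numbers, correlated at 0.449. Any 2 arrays shared at most 0.517% of raw values. Precision is limited by 3 arrays per group. The genes of the set, the lists and the rule for named genes (all AP-1 genes, up to 4 per list by smallest p, and the 2 closest profiles) were chosen with earlier results of these data known. Lor, Tgm1, Sprr1a, Sprr1b, Sprr2a1, Krt1, Ivl and Hmox1 were named after their values were seen. Marker sums add normalized linear values of the measured markers. The CArG, TATA, STAT and TGACG motifs were added after the first search.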

Additional observations from a re-analysis of the deposited data

Results flagged for a closer look

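For 1 AP-1 gene and 1 of the list genes named by smallest p, the limma interaction of group and title prefix passed its adjusted threshold, as it did for 10.1% of probes. For Fos the effect in bo12 minus that in bo20 was 3.38 log2 units (adjusted p = 0.00531), with effects of 4.17 in bo12 and 0.79 in bo20. For S100a8 it was 1.74 (adjusted p = 0.0200), with effects of 4.08 and 2.34. Gjb6 and Timm8a1, the genes closest to Fos in profile, are not in that count and had gaps of 3.54 (SE 0.37) and 3.68 (SE 0.43). Both were chosen for likeness to Fos on the same arrays, so a similar gap follows from that choice and adds no support. The bo12 effects rest on 1 array per group, and the spread comes from the bo20 arrays alone, with 2 residual degrees of freedom. The wild-type array of bo12 is wild-type array 3, in which Fos was not above background and lay 4.45 under the median of the other 5 arrays. A difference between the prefixes and the deviation of that array cannot be told apart.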

How the results depend on the processing

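No AP-1 gene passed limma's adjusted threshold under any alternative that gave a test, in which the smallest adjusted p was 0.267 (Fosl2 with array weights). The unadjusted p was under 0.05 in 6 of 18 alternatives for Fos, 6 of 19 for Fosl2, 2 of 19 for Junb and 0 of 19 for Jun, Jund and Atf3 each. In those alternatives 9.21% to 15.9% of all probes were under 0.05 for Fos, 5.73% to 15.9% for Fosl2, and 8.14% and 13.8% for Junb. The alternatives reuse the same arrays, so these counts are no repeated support. Fos stayed above 0 (0.59 to 4.17) and Fosl2 below 0 (-1.11 to -0.12, the latter with median scaling) in all alternatives. With the replicate block Fos stood at 1.92 (adjusted p = 0.535), and the block changed no call. Jun turned to 0.29 with median scaling, which moved the median of all probes to 0.42 and also turned Mapk3 (0.079) and Map2k3 (0.12), and Atf3 turned to -0.17 on the authors' deposited log2 values. Over the fits that leave out 1 array, Fos ranged from 0.59 to 2.80, Fosl2 from -0.87 to -0.34, Jun from -0.55 to -0.02, Junb from 0.06 to 0.42, Jund from -0.29 to 0.39 and Atf3 from -0.016 to 0.15. Jund turned negative without mutant array 3 or wild-type array 1, and Atf3 without wild-type array 2. Within bo12, with 1 array per group and no test, the values were 4.17 (Fos), -1.11 (Fosl2), -0.75 (Jun), -0.020 (Junb), -0.069 (Atf3) and -0.03 (Jund). Probes past the threshold numbered 0 with all arrays and 1077 at an unadjusted p under 0.05. The count was 1 without background correction, 6 on the authors' deposited log2 values, 129 with array weights, 48 with the prefix as a fixed and 54 as a random block, 76 within bo20, and 0 to 49 on leaving out 1 array, the 49 without wild-type array 3. Kept to the probes of all 6 arrays, that last count was 51, a setting added after seeing the data. The cause of these shifts was not tested. Signal over background limits Atf3 and leaves Fosb and 2 of 3 Fosl2 probes unmeasured.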
